A study of Mus musculus with 3 samples.

Results

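The transcripts of 201 solute carrier genes outside the Slc25 family were examined in YTHDF2 RNA immunoprecipitation sequencing (RIP-seq) of mouse embryonic stem cells (ESCs). Members were taken from the gene table by symbol, namely Slc followed by a number, letters and a number, without Slc25a, without the suffixes os and -ps, and with at least 100 reads summed over the 3 libraries. Of the 49997 genes in the table, 327 symbols matched and 126 of them stayed under 100 reads, 33 of which had no read in any library. The summed count chose the members, and the ratio of IP to input did not enter that choice. Just inside the limit were Slc35f4 with 105 reads, Slc6a13 with 107 and Slc23a1 with 108, and just outside it were Slc22a7 with 96, Slc12a3 with 93 and Slc30a3 with 93. All 201 members are protein-coding and fall into 48 numbered families, and all 201 passed the filter on low counts. A member with few reads could reach the limit through the libraries in which it was high, so counts of calls are also given for deeper members. Of the members called below, 3 enriched ones would have fallen under 100 reads at 3 times their input count, and 3 depleted ones at 3 times their mean IP count. Symbols were matched by name only, so some members do not carry solutes themselves. Kept apart as partner proteins of carriers were 3 of the 201 (Slc9a3r1, Slc9a3r2 and Slc4a1ap). Slc3a2, the heavy chain of a transporter, was counted with the amino acid carriers.

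YTHDF2 recognises N6-methyladenosine (m6A) in RNA and brings the modified transcript to the decay machinery. In RIP-seq, RNA that comes down with an antibody against a protein is sequenced beside an input library of the RNA before selection. The cells were the E14 line of ESCs after 24 h of doxycycline (Dox). In the cell system of the study, Dox switches on a Dux transgene, and a MERVL promoter drives tdTomato as a reporter of the state that resembles the 2-cell (2C) embryo. All 3 libraries therefore come from treated cells, 1 input (total RNA) and 2 YTHDF2 IP libraries, and no untreated cells enter the comparison. No IP with a control antibody was analysed here, so RNA that sticks to beads or antibody cannot be told apart from RNA held by YTHDF2. Counts summed to between 35259827 and 36986994 reads a library, and 3 counts correspond to between 0.0811 and 0.0851 CPM (counts scaled to library size). The size is the plain total of counts here and for the markers, and for the carriers it is adjusted by the TMM method. The cell label was checked against markers. All 8 ESC markers and all 8 markers of the 2C-like state were above 1 CPM in the input, while 5 of 7 fibroblast markers were under 1 CPM and 2 of them were at 0. The highest fibroblast marker was Thy1 at 26.9 CPM. Of 6 primitive endoderm markers 5 were above 1 CPM, and together they stood at 18.1 CPM in the input against 23.1 and 19.1 CPM in IP. Summed levels of the 2C-like markers were 1936 CPM in the input against 3114 and 3102 CPM in IP, so these markers differed between IP and input too, and their part in the values below was not tested. The cells were sequenced in bulk, so more cells in a state and more RNA per cell cannot be told apart.

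Solute carriers are membrane proteins that move sugars, amino acids, nucleosides, metals, ions and lipids across the plasma membrane and the membranes of organelles. Most work by coupling the substrate to a gradient of sodium or protons, by exchanging one substrate for another, or by letting it pass down its own gradient. Their mRNAs are translated by ribosomes at the endoplasmic reticulum (ER), since nearly all carriers are proteins with several membrane-spanning helices. Growing ESCs depend on carriers of glucose and of amino acids such as glutamine, leucine and cystine.

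Carrier transcripts were found on both sides of the input, with the copper carrier Slc31a2, the PAPS carrier Slc35b2 and the glucose transporter Slc2a1 among those enriched with YTHDF2 and the amino acid carriers Slc38a4 and Slc7a3 among those depleted. Enriched and depleted mean an adjusted p under 0.05 in the quasi-likelihood test of edgeR together with a fold over 2 between IP and input. By this call 31 of the 201 members (15.4%) were enriched in IP, beside 15.2% of all 19601 genes tested, and 19 (9.45%) were depleted, beside 14% of all genes tested. The other 151 were not called. Whether the carriers differ from other genes was not tested, and the depleted share moved with the processing. It was 10.4% beside 11.5% of all genes after a smooth trend of log2 fold change on exonic GC content over all genes was subtracted (GC trend removed). At any fold, 74 members (36.8%) were higher in IP, against a background of 28.5%, and 59 (29.4%) were lower, against 30.1%. Deeper counting lets smaller differences pass, and among the 14979 genes with at least 100 reads those backgrounds were 34.8% and 35.8%. In that same set 17.4% of the genes were enriched and 14.7% depleted, and of its 13105 protein-coding genes 16.5% were enriched, 13.9% depleted, 35.4% higher at any fold and 36.7% lower. The median log2 fold change of the members was 0.11, with quartiles of −0.54 and 0.64, and the median over all genes tested was 0.01.

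Both IP ratios share the single input, so their signs are not independent. The log2 ratio had the same sign in both for 181 of the 201 members (90.0%), beside 93.4% of the genes with at least 100 reads, and the difference between the IP libraries had an SD of 0.28 across members. In each IP library separately, 28 members were over 2-fold higher than the input, beside a background of 17.2% of all genes tested, and 17 were over 2-fold lower, beside 14.6%. Calls were also counted by depth. Of the 150 members with at least 500 reads, 22 were enriched (14.7%, beside 16.3% of all genes of that depth) and 10 depleted (6.67%, beside 14.5%). Of the 51 members below that, 9 were enriched (17.6%, beside 21.0% of genes between 100 and 500 reads) and 9 depleted (17.6%, beside 15.5%). The input was a single library, so the error of each test comes from the difference between the IP libraries, which may be technical, and variation between inputs was not measured. With a larger spread assumed in its place, a dispersion of 0.1, 7 members stayed enriched (3.48%, beside 8.05% of all genes) and 9 depleted (4.48%, beside 7.81%). Of the members named by rule, those that lost their call in this way were Slc2a1, Slc7a11, Slc9a3r1, Slc16a9, Slc22a23, Slc23a2, Slc35b2, Slc35e1, Slc37a3, Slc39a4, Slc40a1, Slc45a4 and Slc52a2, with adjusted p between 0.0539 and 0.211.

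**Figure D1:**
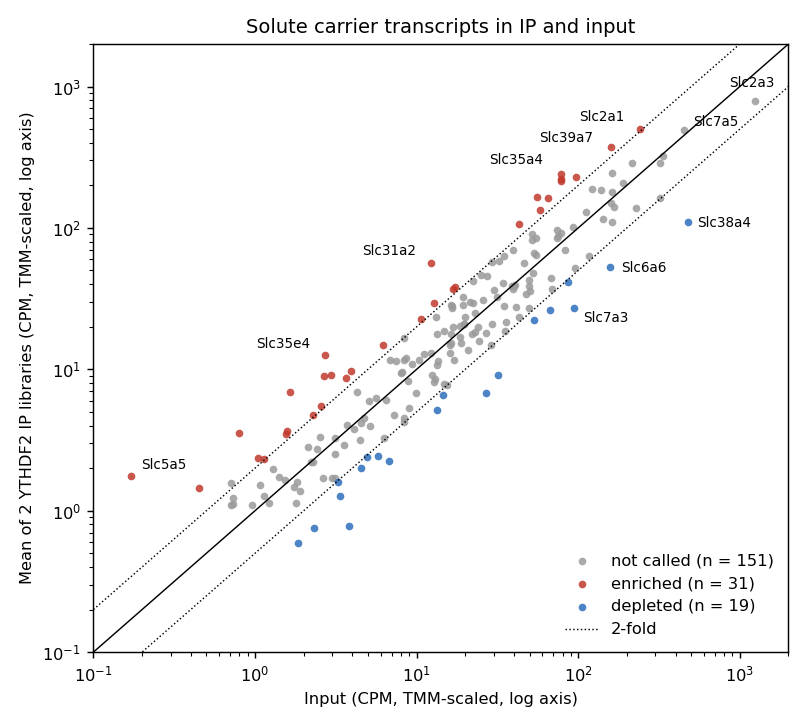
Each point is 1 of the 201 solute carrier genes, with its level in the input on the horizontal axis and the mean of the 2 YTHDF2 IP libraries on the vertical axis, both in CPM scaled by the TMM method on log axes. The solid line marks equal levels and the dotted lines a 2-fold difference. The 31 enriched members (red) and 19 depleted members (blue) lie across the whole range of levels, and Slc2a3, the carrier with the highest level in the input, lies between the lines.

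Glucose transporters were among the most abundant carriers in the input. Slc2a3 (GLUT3), a high-affinity glucose transporter, had 43769 reads in the input against 28255 and 28948 in IP. Slc2a1 (GLUT1), the glucose transporter of most growing cells, had 8572 input reads, with 18603 and 18057 after IP. The 2 genes thus went opposite ways, with both IP libraries below the input for Slc2a3 and above it for Slc2a1. The log2 fold change of IP over input was −0.65 ± 0.046 (SE) for Slc2a3, 1.57-fold lower, which did not reach the 2-fold limit (adjusted p = 9.95e-22). For Slc2a1 it was 1.06 ± 0.057, 2.08-fold higher (adjusted p = 4.44e-28). Slc2a1 was close to the limit, and its value was 0.83 with the GC trend removed. With the larger spread assumed its adjusted p was 0.211.

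On a scale of CPM per kilobase of exon, which allows levels of different genes to be compared, Slc2a3 stood at 219 in the input and Slc2a1 at 90.4. In the IP libraries the order was the other way round, with 139 and 140 for Slc2a3 and 192 and 184 for Slc2a1. Slc2a3 moved from the highest of the 201 members in the input to the fourth in IP, and Slc2a1 from the fourth to the highest. Slc2a3 lies on the minus strand at chr6:122727809-122802363 and Slc2a1 on the plus strand at chr4:119108745-119137330, both in the GRCm38.p6 build. The coding windows of 30 bases with the most copies of GGAC, the commonest core of the m6A consensus, are shown for both to let a reader set the motif beside the enrichment. Capitals mark GGAC, searched on the transcript strand only, and the sequences are those of the reference genome with RefSeq coding exons.
Slc2a1, chr4:119134371-119134400, plus strand: gtttgttgtagagcgagctGGACgacGGAC
Slc2a3, chr6:122730033-122730062, minus strand: ccggagaccaaaggcaGGACtttcgaGGAC
Each window held 2 copies. The coding exons, searched one at a time, held 5 in the 1479 bases of Slc2a1 and 11 in the 1482 bases of Slc2a3. Over all exons the densities were close, 5.22 copies per kilobase in Slc2a1 and 5.49 in Slc2a3.

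Other sugar carriers were present at lower levels. Of the 15 members of the sugar and sodium-glucose families, 4 were enriched (26.7%, beside 15.2% of all genes tested) and 0 depleted (beside 14%). The median log2 fold change was 0.13, and the single IP libraries gave medians of 0.05 and 0.17. Slc2a5, a fructose transporter, had 95 reads in the input against 326 and 322 in IP, a log2 fold change of 1.73 ± 0.273, though some of its annotated exons lie on alternate scaffolds. Slc45a4 had 2311 input reads, with 5823 and 6021 after IP, at 1.32 ± 0.076. In both genes the IP libraries lay well above the input and close to each other. Slc5a5, the sodium and iodide symporter of the thyroid, had the highest log2 fold change of all members (3.34 ± 0.80) but rested on 6 reads in the input against 77 and 50, and it passed the limit of 100 reads through its IP libraries.

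Carriers of amino acids and peptides held the largest number of depleted members of any substrate group. Of 33 members in the families Slc1, Slc3, Slc7, Slc15, Slc36, Slc38, Slc43 and Slc66, 8 were depleted (24.2%, beside 14% of all genes tested) and 1 was enriched (3.03%, beside 15.2%). At any fold 14 were lower (42.4%, beside 30.1%) and 12 higher (36.4%, beside 28.5%). Among genes with at least 100 reads those backgrounds were 35.8% and 34.8%. The median log2 fold change was −0.25. The median was −0.10 without IP replicate 2 and also −0.10 on the TPM scale, where counts are divided by exonic length and brought to equal sums. By DESeq2 4 of the 33 were depleted, beside 10.6% of all genes, and 4 with the larger spread assumed, beside 7.81%. Of the 8 depleted members, 3 had a mean of at least 10 CPM.

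Slc38a4 (SNAT4) had the lowest log2 fold change among members with a mean of at least 10 CPM. It transports neutral amino acids with sodium and is an imprinted gene expressed from the paternal allele in the mouse. It had 16930 reads in the input against 4271 and 3793 in IP. Both IP libraries were far below the input, at a log2 fold change of −2.11 ± 0.061, or 4.32-fold lower (adjusted p = 3.6e-41). Per kilobase of exon it was the third highest carrier in the input, at 111 CPM, and 27.3 and 23.9 in the IP libraries placed it in rank 28. The gene lies on the minus strand at chr15:96994816-97055956 with 20 merged exons. Its densest coding window is also shown. The window was picked for its copies of GGAC, so their presence was fixed by that choice.
Slc38a4, chr15:97019768-97019797, minus strand: gacagctgcagcggGGACagtattcaGGAC
Its coding sequence of 1644 bases held 6 copies, or 3.65 per kilobase.

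Slc7a3 (CAT3) and Slc15a1 (PEPT1) were depleted to a similar degree. Slc7a3, a carrier of arginine and lysine, had 3346 input reads, with 960 and 1016 after IP, at −1.80 ± 0.091. Slc15a1, which takes up small peptides with protons, had 1123 reads in the input against 301 and 360 in IP, at −1.80 ± 0.144. For both genes the IP libraries lay below the input by more than 3-fold. The remaining depleted members were less abundant. Slc1a3, a glutamate transporter, had 512 reads against 247 and 231. Slc7a11, the cystine and glutamate exchanger that feeds glutathione synthesis, had 175 reads against 91 and 84, at −1.04 ± 0.307. It lost its call on the TPM scale (−0.89), by DESeq2 (adjusted p = 0.091), with the larger spread assumed (adjusted p = 0.198) and with the GC trend removed (−0.40). Slc15a2, Slc7a2 and Slc38a5 had between 82 and 160 reads in the input, with Slc38a5 at 82 against 13 and 42, a wide gap between the IP libraries. Slc38a5 passed the limit of 100 reads through the input, where it was high.

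Other well-known amino acid carriers of the list fixed by name were not called. Slc7a5 (LAT1), which imports leucine and other large neutral amino acids, had 15942 input reads, with 17532 and 18425 after IP, at 0.13 ± 0.053. Its partner Slc3a2 (CD98), the heavy chain that brings LAT1 and the cystine exchanger to the cell surface, had 11336 reads in the input against 5769 and 6120 in IP, at −0.97 ± 0.06, just short of the limit. The 2 chains of this transporter thus stood on different sides of the input. Slc3a2 was past the limit when the GC trend was removed (−1.01), and Slc7a5 then changed sign (−0.17). Slc1a5 (ASCT2) had a log2 fold change of −0.30 ± 0.070 (−0.63 with the GC trend removed), Slc1a4 (ASCT1), its relative that carries alanine, serine and cysteine, of 0.34 ± 0.149 (0.17 with the GC trend removed), Slc38a2 of −0.09 ± 0.067 and Slc38a1 of 0.15 ± 0.065. Slc7a1 (CAT1), the arginine carrier of most cells, stood at −0.25 ± 0.067, with 5895 input reads and 5240 and 4962 after IP. The sign for Slc38a2 also depended on scaling, since it was 0.06 on the TPM scale and 0.35 with the GC trend removed.

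Members higher in IP were also found among amino acid carriers, several of them known from the lysosome. Slc15a4, a lysosomal histidine and peptide carrier, had 884 reads in the input against 1704 and 1672 in IP, at 0.89 ± 0.111, and passed the 2-fold limit on the TPM scale (1.04). Slc36a1, a proton-coupled carrier of small amino acids, had 967 reads against 1802 and 1546, at 0.75 ± 0.112. Both genes had IP libraries above the input without overlap. A list of carriers known from lysosomes and endosomes was then counted whole. Of its 11 measured members 1 was enriched and 0 were depleted, beside 15.2% and 14% of all genes tested. At any fold 4 were higher and 4 lower (36.4% each, beside 28.5% and 30.1%). Both shares were close to the 34.8% and 35.8% of genes with at least 100 reads. The median was 0.30. Taken one at a time, replicate 1 of the IP gave a median log2 ratio of −0.09 and replicate 2 gave 0.52, so the IP libraries did not share its sign. The enriched member was Slc11a1, a metal carrier of phagosomes, with 104 input reads and 298 and 367 after IP. Slc7a4 was the 1 enriched amino acid family member, with 16 reads against 48 and 57, and it passed the limit of 100 reads through its IP libraries.

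The Slc35 family, grouped here under nucleotide sugars, held several enriched members and none that was depleted. It moves nucleotide sugars and related donors from the cytosol into the Golgi and ER, where glycans are built. The substrates of several members are not settled, so the counts are by gene symbol and not by proven substrate. Of the 26 members of the family, 9 were enriched (34.6%, beside 15.2% of all genes tested) and 0 were depleted (beside 14%). At any fold 13 were higher and 6 lower in IP (50.0% and 23.1%), beside 28.5% and 30.1% of all genes tested. Among genes with at least 100 reads those backgrounds were 34.8% and 35.8%. The median log2 fold change was 0.57. With Slc33a1, the acetyl-CoA carrier of the ER, the substrate group had 27 members. Under the alternatives with a test, between 2 (larger spread assumed, beside 8.05% of all genes) and 11 (TPM scale, beside 18.3%) of the 27 were enriched and none depleted, and without IP replicate 1 the fold of 1 member passed the limit downward.

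Slc35b2 carries PAPS, the sulfate donor, into the Golgi. It had 1964 reads in the input against 6036 and 6043 in IP, at a log2 fold change of 1.58 ± 0.078, or 2.99-fold higher (adjusted p = 1.86e-30). The IP libraries were nearly equal and well above the input. Slc35b1, its relative that exchanges ATP and ADP across the ER membrane, had 2439 input reads, with 1298 and 1406 after IP, at −0.89 ± 0.093. These family members therefore lay on opposite sides of the input. Per kilobase of exon, Slc35b2 went from 18.7 CPM in the input to 56.2 and 55.4 in IP, while Slc35b1 stood at 50.3 and then 26.2 and 28.0. Their densest coding windows are shown to compare motif content between relatives that differed in recovery.
Slc35b2, chr17:45564634-45564663, plus strand: gtcacccgaagcccctccgcagtcctGGAC
Slc35b1, chr11:95389095-95389124, plus strand: ctggatGGACtgacaggtgtttcccaGGAC
The coding sequence held 6 copies in 1296 bases of Slc35b2 and 4 in 969 bases of Slc35b1, or 4.63 and 4.13 per kilobase. Over all exons the order was the other way round, with 3.36 per kilobase in Slc35b2 and 3.64 in Slc35b1.

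The other abundant enriched members of the family were Slc35a4, Slc35e1 and Slc35b4. Slc35a4 had 2762 reads in the input against 8611 and 9031 in IP, at 1.64 ± 0.071, or 3.11-fold higher, and 5.19% of its exonic bases are shared with another gene. Slc35e1 had 2787 reads against 7945 and 7669, at 1.45 ± 0.072. Slc35b4, which carries UDP-xylose and UDP-N-acetylglucosamine, had 2056 against 4736 and 5071, at 1.21 ± 0.080. All 3 had IP libraries more than 2-fold above the input in each replicate. Slc35e4 was higher still at 2.22 ± 0.251 but much less abundant, with 96 reads against 461 and 457, and 1.56 with the GC trend removed. Slc35c1, the GDP-fucose carrier of the Golgi, had 609 reads against 1401 and 1374, at 1.15 ± 0.125. Slc35f6 had 592 against 1274 and 1408.

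The carriers of UDP-galactose and CMP-sialic acid were not among those enriched. Slc35a2, the UDP-galactose carrier, had 795 input reads, with 999 and 1126 after IP, at 0.38 ± 0.125. Slc35a1, the CMP-sialic acid carrier, had 1262 against 795 and 771, at −0.73 ± 0.117. Slc35a3, a UDP-N-acetylglucosamine carrier, had 1242 against 749 and 616, at −0.90 ± 0.124, the lowest of the family. Slc35a1 and Slc35a3 were thus below the input in both IP libraries, and Slc35a2 was above it. The value of Slc35a3 was −0.23 with the GC trend removed. A pair of enriched members was less certain. Slc35g2 shares 44.4% of its exonic bases with another gene, and Slc35g3 had 56 reads in the input against 166 and 100 in IP.

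**Figure D2:**
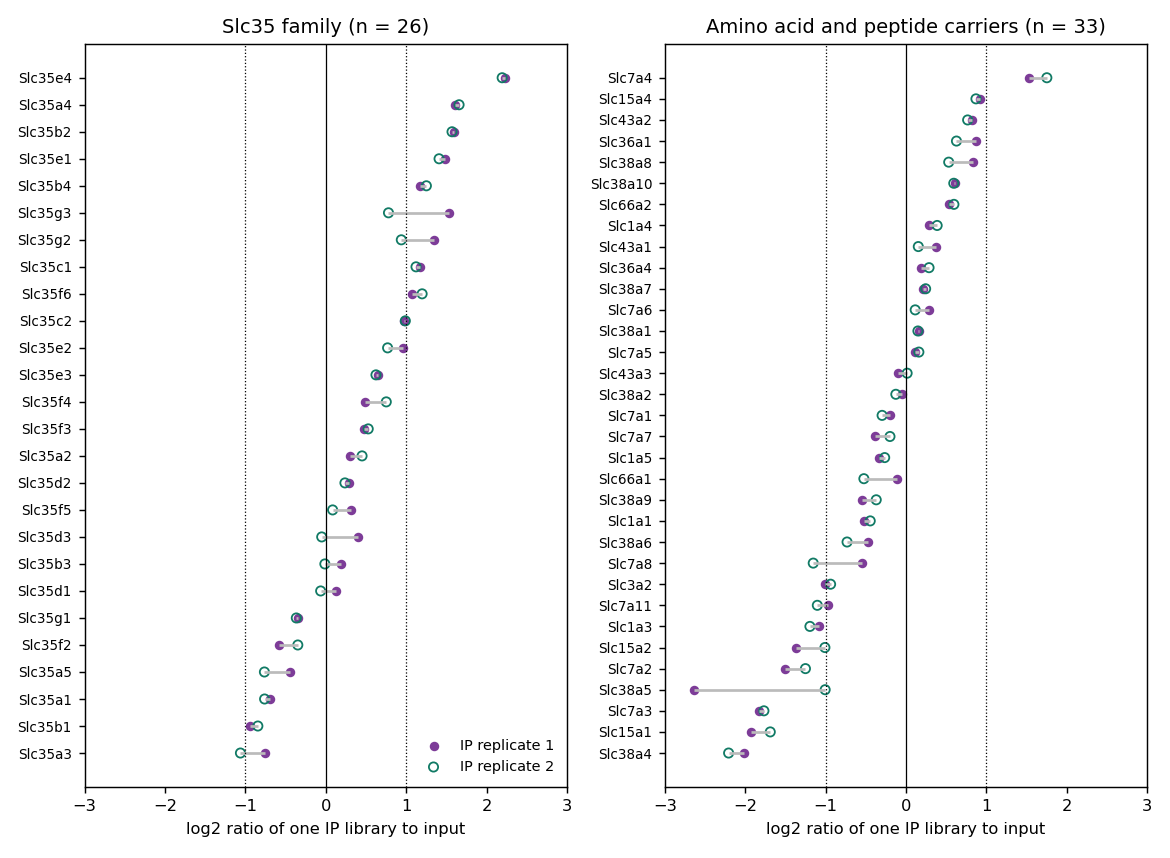
Log2 ratio of each YTHDF2 IP library to the input for the 26 members of the Slc35 family (left) and the 33 carriers of amino acids and peptides (right), with IP replicate 1 as filled and IP replicate 2 as open circles joined by a line, and dotted lines at a 2-fold difference. In the Slc35 family 7 members lie beyond the upper line in both replicates and 0 beyond the lower line, and among the amino acid carriers 1 lies beyond the upper and 7 beyond the lower line in both. Slc38a5 is the member whose replicates lie farthest apart.

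A list of carriers known from the Golgi and the ER, which overlaps the Slc35 family and adds zinc, acetyl-CoA and glucose 6-phosphate carriers of those membranes, was also counted. Of its 19 measured members 4 were enriched (21.1%, beside 15.2% of all genes tested) and 0 depleted (beside 14%). At any fold 8 were higher and 3 lower (42.1% and 15.8%, beside 28.5% and 30.1%). Among genes with at least 100 reads those backgrounds were 34.8% and 35.8%. The median was 0.23. The list shares 11 members with the Slc35 family, 3 of them enriched and counted above, and of its other 8 members 1 was enriched and 0 depleted. That member, the zinc carrier Slc39a7 (ZIP7), which releases zinc from the ER, had 5676 input reads, with 13097 and 13889 after IP, at 1.21 ± 0.062 (adjusted p = 1.31e-29), and some of its annotated exons also lie on alternate scaffolds. Per kilobase of exon it stood seventh among all members in the input, at 67.1 CPM, and second in IP, at 152 and 158. Its densest coding window is shown because it held more copies of GGAC than any other printed here.
Slc39a7, chr17:34030141-34030170, minus strand: tgaaaggaGGACatGGACacagtcacGGAC
This window held 3 copies and the coding sequence of 1431 bases held 14.

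Carriers of metals and heme held 27 members, of which 6 were enriched (22.2%, beside 15.2% of all genes tested) and 1 was depleted (3.70%, beside 14%). At any fold 14 were higher (51.9%, beside 28.5%) and 6 lower (22.2%, beside 30.1%). Among genes with at least 100 reads those backgrounds were 34.8% and 35.8%. The median log2 fold change was 0.29. The copper family was split. Slc31a1 (CTR1), the main copper importer of the plasma membrane, had 3355 reads in the input and 1880 in each IP library. Slc31a2 (CTR2), its relative on intracellular membranes, had 433 reads in the input against 2034 and 2100 in IP. Per kilobase of exon, Slc31a1 went from 25.2 CPM to 13.8 and 13.6 and Slc31a2 from 6.08 to 28.0 and 28.5, so the order in the input was reversed in both IP libraries. The log2 fold change was −0.88 ± 0.082 for Slc31a1 and 2.21 ± 0.125 for Slc31a2, or 4.64-fold higher (adjusted p = 4.89e-27). Slc31a2 was also called with the larger spread assumed (adjusted p = 0.00671), and Slc31a1 stood at −0.50 with the GC trend removed. Both genes are on the plus strand of chromosome 4, Slc31a2 at chr4:62280393-62298412 and Slc31a1 at chr4:62360583-62391769. Their densest coding windows are shown because the members of this small family lay on opposite sides of the input.
Slc31a2, chr4:62295992-62296021, plus strand: ccaccaacagccagcagttcatcttgGGAC
Slc31a1, chr4:62385565-62385594, plus strand: caccaccatatgggtatgaaccacacGGAC
The coding sequence of Slc31a2 held 2 copies in 432 bases and that of Slc31a1 held 6 in 591, or 4.63 and 10.2 per kilobase. Over all exons the densities were 3.97 and 4.52.

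Iron and zinc carriers were found on both sides. Slc40a1 (ferroportin), the iron exporter, had 55 input reads, with 138 and 115 after IP, at 1.16 ± 0.389, and was not called by DESeq2 (adjusted p = 0.0853). Slc11a2 (DMT1), the iron importer, had 1951 against 2352 and 2334, at 0.22 ± 0.088, and 0.08 with the GC trend removed. Both stood above the input, Slc11a2 by little. The zinc exporter Slc30a1 (ZnT1) had 1139 reads against 2210 and 2002, at 0.85 ± 0.102, and was past the limit with the GC trend removed (1.07). It also has exons on alternate scaffolds. The zinc importer Slc39a3 had 456 reads against 959 and 1168, at 1.18 ± 0.145. Slc39a4 (ZIP4), the zinc importer of the intestine, was the depleted member, with 1871 reads in the input against 753 and 867 in IP, at −1.25 ± 0.108. Slc39a10, another zinc importer of the plasma membrane, had 4121 against 2423 and 2172, at −0.88 ± 0.079, and −0.21 with the GC trend removed.

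**Figure D3:**
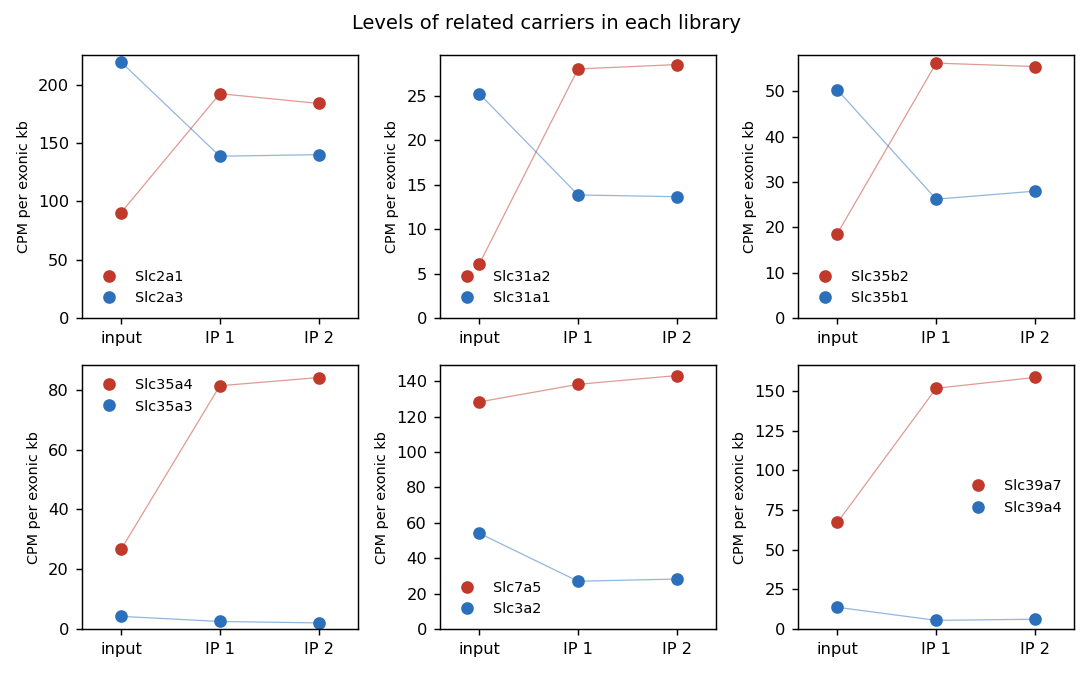
Levels in CPM per kilobase of exon in the input and the 2 YTHDF2 IP libraries for 6 pairs of related carriers or chains of one transporter. Each panel has its own vertical axis starting at 0 and 1 point per library, red for the member with the higher log2 fold change and blue for the other. All 6 pairs shown have members on opposite sides of the input and were picked with values known. Other relatives, such as Slc16a1 and Slc16a3, lay on the same side and are not drawn. In the 3 upper panels the order of the pair in the input is the reverse of that in both IP libraries. Slc2a1 goes from 90.4 to 192 and 184 while Slc2a3 goes from 219 to 139 and 140, and Slc31a2 and Slc35b2 cross Slc31a1 and Slc35b1 in the same way.

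The Slc6 family and its neighbours in function carry taurine, creatine and neurotransmitters. Of 15 such members 3 were depleted (20.0%, beside 14% of all genes tested) and 1 enriched (6.67%, beside 15.2%). Slc6a6, the taurine transporter, had 5591 input reads, with 1936 and 1932 after IP, at −1.57 ± 0.0745, or 2.97-fold lower. Slc6a8, the creatine transporter, had 11340 against 9760 and 11079, at −0.16 ± 0.059, and −0.50 with the GC trend removed. The taurine carrier was clearly below the input in both IP libraries, and for the creatine carrier IP replicate 2 nearly reached it. Slc18b1, a vesicular polyamine carrier, had 474 reads against 181 and 192. The enriched member was Slc6a12, a betaine carrier, with 28 against 118 and 142, and it too passed the limit of 100 reads through its IP libraries. Slc6a16, an orphan member of the family, had 297 reads against 458 and 394, at 0.48 ± 0.192, and 0.23 with the GC trend removed.

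Carriers of bicarbonate, protons and anions had no enriched member among 18 (beside 15.2% of all genes tested), and 2 were depleted (11.1%, beside 14%). At any fold 8 were lower (44.4%, beside 30.1%) and 2 higher (11.1%, beside 28.5%). Among genes with at least 100 reads those backgrounds were 35.8% and 34.8%. The median log2 fold change was −0.37. Slc4a7 (NBCn1), which brings bicarbonate into the cell with sodium, had 951 reads in the input against 278 and 218 in IP, at −1.98 ± 0.16. With 39.2% GC it had the lowest GC content of all members, and with the GC trend removed its value was −1.29, which was still past the limit. Slc4a2 (AE2), a chloride and bicarbonate exchanger, had 846 against 769 and 687, at −0.26 ± 0.132, which did not pass the test. With the GC trend removed it did pass, at −0.79 (adjusted p = 3.77e-07). Slc26a2, a sulfate carrier, was the highest of the group with 786 reads against 1459 and 1586, at 0.91 ± 0.116. It was past the limit on the TPM scale (1.07) and with the GC trend removed (1.09). Among the 11 carriers of sodium, potassium, chloride and calcium none was called in either direction, beside 15.2% enriched and 14% depleted of all genes tested, although Slc12a8 was past the limit on the TPM scale (1.13) and without the filter (1.00). Slc12a2 (NKCC1), which brings in sodium, potassium and chloride together, had 2397 reads against 1693 and 1506 (−0.62 ± 0.092, and −0.25 with the GC trend removed), and Slc12a8 had 297 against 641 and 564, at 0.98 ± 0.178. The partner protein Slc9a3r1 (NHERF1), a scaffold for the sodium and proton exchangers, was depleted, with 3044 input reads and 1474 and 1554 after IP, at −1.05 ± 0.087, and fell short of the limit on the TPM scale (−0.90).

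Carriers of lactate and other carboxylates were split within a family. Slc16a1 (MCT1), the lactate and pyruvate carrier, had 8095 reads in the input against 5049 and 4944 in IP, at −0.74 ± 0.064. Slc16a3 (MCT4), the lactate exporter of glycolytic cells, had 452 against 267 and 324, at −0.65 ± 0.186, with 10.6% of its exonic bases shared with another gene. Both lay below the input and neither reached the limit. The value of Slc16a1 was −0.22 and that of Slc16a3 −1.11 with the GC trend removed. Slc16a5 and Slc16a9, members whose roles are less well known, were enriched. Slc16a5 had 58 reads against 243 and 261, at 2.08 ± 0.329, with 13.9% of its exonic bases shared with another gene. Slc16a9 had 220 against 490 and 584, at 1.25 ± 0.197. Of the 10 members of this group 4 were enriched and 1 depleted, beside 15.2% and 14% of all genes tested.

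Vitamin carriers also stood on both sides. Slc23a2, which takes up ascorbate with sodium, had 2374 input reads, with 915 and 982 after IP, at −1.36 ± 0.099. Slc52a2, a riboflavin carrier, had 1519 reads against 3923 and 3839, at 1.31 ± 0.086. Both IP libraries lay below the input for the first gene and above it for the other. Slc19a1, the reduced folate carrier, had 697 against 772 and 758, at 0.09 ± 0.136, and the nucleoside carrier Slc29a1 (ENT1) had 11871 against 11541 and 11970, at −0.05 ± 0.056. Neither of these passed the test. The sign changed for Slc19a1 with the GC trend removed (−0.26) and for Slc29a1 on the TPM scale (0.10), and Slc29a1 passed the test with the GC trend removed (−0.31, adjusted p = 1.26e-06). Slc44a2, a choline-like carrier, had 3434 reads against 8332 and 8265, at 1.23 ± 0.069. Of the 19 carriers of nucleosides, vitamins and choline 3 were enriched (15.8%) and 2 depleted (10.5%), beside 15.2% and 14% of all genes tested. Slc23a1, a relative of Slc23a2, was the other depleted member, with 65 reads against 14 and 29, and it passed the limit of 100 reads through the input, where it was high.

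Phosphate carriers and carriers of organic ions completed the set. Slc37a3, of the sugar phosphate family, had 2763 reads in the input against 8023 and 8022 in IP, at 1.50 ± 0.072, or 2.82-fold higher. Slc37a2 of the same family had 576 against 714 and 577 and did not pass the test (0.12 ± 0.151). Slc34a2, a sodium and phosphate cotransporter, had 237 against 69 and 95, at −1.57 ± 0.289. Slc20a1 (PiT1), the phosphate importer of most cells, had 6658 against 7403 and 7735, at 0.15 ± 0.063 (0.28 with the GC trend removed). Slc37a3 was thus above the input in both IP libraries, Slc34a2 below it, and Slc20a1 close to it. Slc22a23 had 378 reads against 806 and 843, at 1.08 ± 0.156, and lost its call with the GC trend removed (0.88). Slc47a1 (MATE1), an exporter of organic cations, had 318 against 223 and 163, at −0.76 ± 0.226. Slc22a18, an imprinted gene, had 40 to 46 reads a library. All 4 fatty acid transport proteins of the Slc27 family were uncalled, with log2 fold changes between −0.11 and 0.26.

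**Figure D4:**
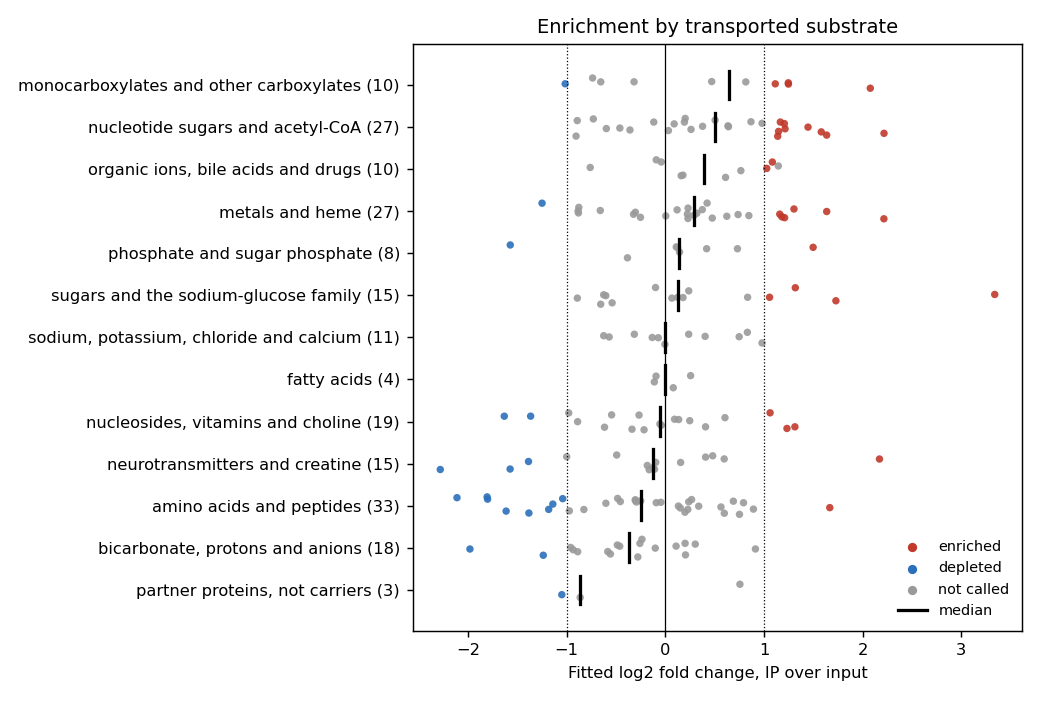
Fitted log2 fold change of IP over input for each member, grouped by transported substrate with the number of members in brackets, where black bars mark group medians and dotted lines a 2-fold difference. Group medians run from −0.37 for bicarbonate, protons and anions to 0.64 for monocarboxylates, leaving aside the 3 partner proteins, and within each group but the fatty acid carriers the values spread wider than that. The group of nucleotide sugars has no depleted member, and 1 member with no fixed role, Slc49a4, is not drawn.

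Features of the transcripts that the choice of members did not use were set beside the enrichment. Median exonic GC content was 53.4% in the 31 enriched members, 49.0% in the 19 depleted members and 51.6% in the 151 others, and it was 49.7% over all genes tested. The median number of merged exons was 7 in enriched members, 16 in depleted members and 13 in the others, and it was 7 over all genes tested. With the members split into 3 equal sets of 67 by GC content, 7 were enriched and 9 depleted in the lowest set, 15 and 7 in the middle set, and 9 and 3 in the highest. Among the genes with at least 100 reads, the same bounds gave 9.75% enriched and 24.4% depleted in the lowest range, 19.1% and 9.45% in the middle and 27.8% and 4.59% in the highest. Enriched carriers had fewer exons for their length, with a median of 1.48 exons per kilobase against 3.12 in depleted members. Split likewise by exons per kilobase, the set with the fewest held 18 enriched and 4 depleted members, the middle set 6 and 7, and the set with the most 7 and 8. Over the genes with at least 100 reads the same ranges held 26.5%, 16.9% and 7.38% enriched and 12.6%, 13.9% and 18% depleted genes. Enriched calls thus became fewer with more exons among these genes. Among the members they did not fall from the middle set (6) to the set with the most (7).

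Exon structure was also read from the share of exonic bases in the longest merged exon. In 29 members that share was over 70%, and 10 of these were enriched and 1 depleted, with a median log2 fold change of 0.75. Of the 3959 genes with at least 100 reads and such a share, 25.3% were enriched and 15.1% depleted, with a median of 0.24. In the other 172 members 21 were enriched and 18 depleted, with a median of 0.02, beside 14.5% and 14.6% of the genes with at least 100 reads and no such exon. The median share was 60.0% in the Slc35 family and 48.1% in the amino acid carriers, while median GC content was close, 49.9% and 50.7%. Slc35b2 and Slc31a2 had 83.0% and 71.4% of their exonic bases in a single exon, but Slc31a1, which was lower in IP, had 84.3%. As a description over the 201 members, which share the same 3 libraries, the correlation of log2 fold change with GC content was 0.29 by Pearson's r and 0.26 by Spearman's rho. Over the 19550 genes tested that have a GC value they were 0.27 and 0.31. With exons per kilobase r was −0.15 in the members and −0.16 over all genes, and with the longest-exon share 0.12 and 0.06.

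The GGAC motif differed little between the groups. Its median density on the transcript strand was 4.07 per kilobase of exon in enriched members, 4.28 in depleted members and 4.15 in the others, and 3.94 over all genes tested. Its correlation with log2 fold change (Pearson's r) was 0.18 over the 201 members and 0.20 over all genes tested. Of 31781 windows of 30 bases tiled over the exons of the members 10.4% held GGAC, and of 3024298 windows over all genes tested 9.60% did. A match to these letters is no evidence of a methylated base, and m6A was not measured in these libraries.

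**Figure D5:**
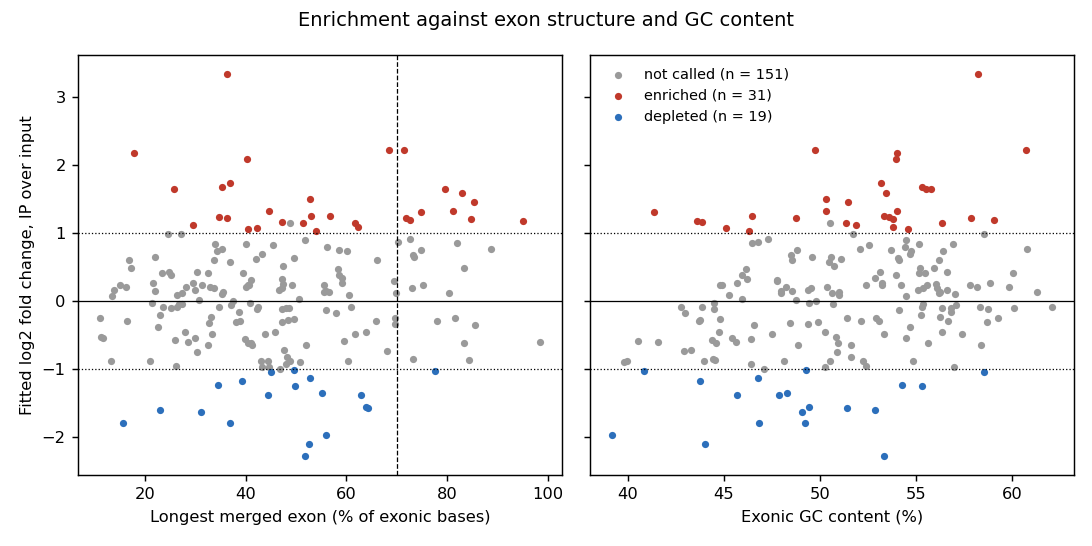
Fitted log2 fold change of IP over input for the 201 members against the share of exonic bases in the longest merged exon (left, in %) and exonic GC content (right, in %), with enriched members in red, depleted members in blue, the others in grey and dotted lines at a 2-fold difference. Right of the dashed line at 70%, 10 members are enriched and 1 is depleted. The lower GC range, on the left of the right panel, holds more depleted members than the upper range.

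The Slc25 family of mitochondrial carriers, left out of the set, gave a point of comparison. Of its 42 members with at least 100 reads, 8 were enriched (19.0%) and 7 depleted (16.7%), beside 17.4% and 14.7% of all genes of that depth, with a median log2 fold change of −0.04. Whether it differs from the other carriers was not tested. Of a list of 29 well-known carriers counted whole, including Slc2a1, Slc3a2 and Slc7a5, 3 were enriched (10.3%, beside 15.2% of all genes tested) and 4 depleted (13.8%, beside 14%), and 22 were not called.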

How the data were processed

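Sample titles gave the groups, 1 input and 2 YTHDF2 IP libraries of E14 ESCs after 24 h of Dox. Per the methods of the study, antibody was added to cleared cell lysate, whereas by the labels the IP was done on total RNA purified with Trizol, and the counts cannot show which holds. The authors aligned reads to mm10 with HISAT2 2.2.1, their processing notes also name fastp 0.19.4, and the deposited values are raw counts per gene from featureCounts 2.0.3 over RefSeq exons. Per the file headers, the authors set paired-end mode without counting pairs, so each mate counts, and even numbers made up between 61.4% and 64.7% of counts from 1 to 100. Sampling noise is therefore larger than the counts imply. No strand option was set, so reads of overlapping antisense genes cannot be told apart. Of the members 55 share exonic bases with another gene, 14 of them over 10%, and 10 have exons on alternate scaffolds.

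The counts went into edgeR 4.0.16 (R 4.3.3). The 19601 genes passing filterByExpr were scaled by TMM (factors 0.957, 1.02 and 1.02), and the quasi-likelihood F test with robust estimation set IP against input, with Benjamini-Hochberg adjustment over all genes tested. The model has 1 residual degree of freedom, from the IP libraries, and the common dispersion was 0.00538. Each SE is the log2 fold change divided by the root of F. For ratios of one IP library to the input, 0.5 was added to each count. The test was tried on simulated data. Alternatives were DESeq2 size factors, TPM scaling, no filter, a fixed dispersion of 0.1, halved counts, the Wald test of DESeq2 1.42.0, removal of a lowess trend on GC content, and leaving out each IP library.

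Coordinates are 1-based on GRCm38.p6, the assembly of mm10, and features come from merged exons on main chromosomes. Sequences are 30-base windows of a RefSeq coding sequence with the most GGAC, the first such window from the start codon. Windows and copies of GGAC were sought within each exon, so a copy across a splice junction is not counted.

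The members and lists were chosen with earlier results of these data known. Named by rule were 29 well-known carriers, the 8 most enriched and 8 most depleted called members averaging at least 10 CPM with IP libraries on one side of the input, and the highest and lowest member with a mean of at least 5 CPM of each substrate group of at least 5 members, 53 genes in all, of which 1 is not reported here. Slc1a3, Slc5a5, Slc6a12, Slc7a2, Slc7a4, Slc11a1, Slc15a2, Slc18b1, Slc23a1, Slc36a1, Slc38a5, Slc39a3, Slc39a7, Slc44a2, Slc49a4 and Slc35 members other than Slc35a3, Slc35a4, Slc35b2, Slc35e1 and Slc35e4 were named after their values were seen. Intervals are not given, since PCR reads are not independent molecules.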

Additional observations from a re-analysis of the deposited data

How the results depend on the processing

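The 31 enriched and 19 depleted members were 31 and 19 with DESeq2 size factors (beside 15.2% and 13.9% of all genes) and with halved counts (16.7% and 14.9%). They were 37 and 15 on the TPM scale (18.3% and 11.0%), 29 and 16 without a filter (9.23% and 8.37%), and 25 and 13 by the Wald test of DESeq2 (12.5% and 10.6%). With the GC trend removed they were 27 and 21 (14.4% and 11.5%), of which 24 and 15 were the same genes. With a fixed dispersion of 0.1 they were 7 and 9 (8.05% and 7.81%), all of them among the original calls. Leaving out 1 IP library gives folds with no test, and 30 to 31 members were then over 2-fold higher and 19 to 24 over 2-fold lower (beside 20.1% to 20.6% and 18.6% to 18.7% of all genes), with a median of 0.09 to 0.13. The median of 0.11 moved to 0.26 on the TPM scale, where the median over all genes rose from 0.01 to 0.16, and to 0.0055 with the GC trend removed. The cause was not tested in either case. Of the 52 genes named by rule and reported, 4 changed sign with the GC trend removed, namely Slc19a1 (−0.26), Slc22a18 (−0.16), Slc38a2 (0.35) and Slc7a5 (−0.17), and 2 on the TPM scale, namely Slc29a1 (0.10) and Slc38a2 (0.060). With a fixed dispersion 13 of the 52 lost their call, with the GC trend removed 3, and by the Wald test 2. No paired analysis was possible because fewer than 2 pairs can be formed with 1 input. Depth limits the 51 members under 500 reads, where 9 were enriched and 9 depleted, and variation between inputs was not measured.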

Other observations

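Symbols that the suffix rule left out were few. Slc7a6os, a gene named for its place opposite Slc7a6, had 2886 input reads against 1792 and 1806 in IP, and Slc2a4rg-ps, a pseudogene by its suffix, had 75 reads and then 95 and 105. Both IP libraries were below the input for the former and above it for the latter, and the other 5 such symbols had at most 20 reads in all.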
